A study of Mus musculus with 12 samples.

Results

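The genes of the proteasome, the protease complex that degrades ubiquitin-tagged proteins, were followed across 12 arrays of mouse T cells. They were taken as all genes with a probe set of a single annotated symbol formed from Psma, Psmb, Psmc, Psmd or Psme and a number, with pseudogenes left out. The rule found 44 of the 22180 genes with a single symbol, of which 5 (Psmb8, Psmb9, Psmb10, Psme1 and Psme2) formed the interferon-inducible part. The symbols Psmc3ip and Psme3ip1 match the rule, but these 2 genes encode partner proteins and not subunits. Psma4 is not described here, because its probe sets carry more than 1 symbol. The rule reads symbols and no difference between groups. A gene with several probe sets is represented by its brightest one on average.

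Mouse splenocytes were cultured for 24 h with 50 µM linoleic acid, a polyunsaturated fatty acid, or without it. CD4+ or CD8+ T cells were then sorted, and their total RNA was hybridised to MoGene-2_0-st arrays. The 4 groups of 3 arrays were CD4 T cells from linoleic acid culture, CD4 T cells from control culture, CD8 T cells from linoleic acid culture and CD8 T cells from control culture. The question put by the series is whether the 2 cell types answer linoleic acid differently. Both cell types shared the dish with the other spleen cells until the sort, so linoleic acid met the whole mixture and not T cells alone. The labels state neither strain nor age, number of animals or pooling. They do not say that the replicates of a group came from different mice or dishes, and p-values below reflect the variation among these arrays, some or all of which may be technical.

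The 20S core of the proteasome is a barrel of stacked rings. Its outer rings are made of alpha subunits and its inner rings of beta subunits, of which Psmb5, Psmb6 and Psmb7 carry the catalytic sites. The 19S cap recognises ubiquitin, with ATPase subunits (Psmc genes) that unfold the substrate and non-ATPase subunits (most Psmd genes) that bind it and remove its tag. Interferon-gamma induces Psmb8, Psmb9 and Psmb10, which take the places of Psmb5, Psmb6 and Psmb7 in newly built cores and give the immunoproteasome, and it also induces Psme1 and Psme2, the subunits of the PA28 activator. Lymphoid cells are known for high immunoproteasome content, which shapes the peptides shown on MHC class I to CD8 T cells.

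Promoter sequences are shown for Psmb8 and Psmb9, the interferon-inducible catalytic genes that lie in the MHC region, and for Psmc6, one of the genes followed below in CD4 T cells. RefSeq promoter entries of build GRCm38.p6 were matched by symbol for 37 of the 44 members, which have 41 promoters between them. The 250 bases before the start are given 5′ to 3′ on the gene's strand, with searched motifs in capitals. In Psmb8 (chr17:34197945-34198194, plus strand) the capitals mark a gamma-activated sequence, TTCNNNGAA, at positions -97 to -89 from the start. In Psmb9 (chr17:34187331-34187580, minus strand) they mark an antioxidant response element core, TGANNNNGC, at -60 to -52 and a CCAAT box on the opposite strand at -8 to -4. In Psmc6 (chr14:45329574-45329823, plus strand) they mark 2 antioxidant response element cores, at -241 to -233 and, on the opposite strand, at -227 to -219.
Psmb8: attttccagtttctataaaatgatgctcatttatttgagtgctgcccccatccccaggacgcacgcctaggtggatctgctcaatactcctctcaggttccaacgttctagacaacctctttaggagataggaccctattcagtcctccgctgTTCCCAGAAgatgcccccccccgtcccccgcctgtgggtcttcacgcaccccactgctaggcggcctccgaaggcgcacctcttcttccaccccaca
Psmb9: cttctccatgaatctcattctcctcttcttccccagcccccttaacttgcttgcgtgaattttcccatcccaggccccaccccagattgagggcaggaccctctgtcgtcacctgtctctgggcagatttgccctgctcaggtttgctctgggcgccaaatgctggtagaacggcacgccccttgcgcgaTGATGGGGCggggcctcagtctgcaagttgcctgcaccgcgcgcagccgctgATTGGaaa
Psmc6: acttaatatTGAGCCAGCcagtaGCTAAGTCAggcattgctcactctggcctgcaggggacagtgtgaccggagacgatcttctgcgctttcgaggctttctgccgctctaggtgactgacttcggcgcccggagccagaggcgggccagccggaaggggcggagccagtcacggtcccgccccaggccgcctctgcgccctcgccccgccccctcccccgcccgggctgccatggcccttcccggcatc

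Both strands of all 41 member promoters were searched for 4 motifs over the same 250 bases, beside all 32851 promoters of the table. The gamma-activated sequence was found in 1 member promoter, that of Psmb8, which is 2.44% of them, against 7.02% of all promoters. The core of the interferon-stimulated response element, GAAANNGAA, was found in 3 (Psmb3, Psmd4 and Psmd9), or 7.32% against 7.13%. The antioxidant response element core was found in 16 member promoters (39% against 35.2% of all), among them those of Psmb5 and Psmb6. The CCAAT box, CCAAT, was found in 16 as well (39% against 33.8%), among them those of 5 alpha ring genes, Psma1, Psma2, Psma3, Psma6 and Psma7. A match describes these letters in this window and no binding.

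All values are log2 intensities, and a difference of 1 on this scale is a doubling of intensity. Array correlations ran between 0.946 and 0.984, and 0 pairs of arrays held identical values. The sort was visible in its lineage genes, with Cd4 at -4.88 ± 0.29 (SE) in CD8 against CD4 control cells and Cd8a at 5.23 ± 0.38. Cpt1a, a gene that fatty acids are known to induce, read 8.34, 7.96 and 7.71 in CD4 linoleic acid arrays and 6.99, 6.40 and 6.62 in CD4 control arrays. The first principal component held 33.2% of the variance and set CD8 linoleic acid replicate 3 farthest out (36.1, the others -23.7 to 14.9). B cell markers, which sorted T cells should lack, averaged 5.92 to 6.41 on the 4 arrays numbered 1 and 7.20 to 7.82 on the other arrays, so these markers followed the array number.

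Some arrays stood apart for many of the proteasome genes. CD4 control replicate 3 was the highest of all 12 arrays for 24 of the 41 tested members, while it was the highest for 10.5% of all genes. The mean over the 41 members was 7.58, 7.55 and 7.49 on the CD4 linoleic acid arrays, against 7.68, 7.58 and 7.77 on the CD4 control arrays. It was 7.59, 7.48 and 7.50 on the CD8 linoleic acid arrays, against 7.53, 7.68 and 7.69 on the CD8 control arrays. CD8 control replicate 1 was the lowest of its group for 30 members, a count for which the share of all genes was not computed. CD8 linoleic acid replicate 3 was the lowest of all 12 arrays for 12 of the 41 members, near its share of all genes (27.7%). The main counts and medians below are therefore also given without CD4 control replicate 3, CD8 control replicate 1 or CD8 linoleic acid replicate 3 where leaving one out moved them. The map of proteasome genes by array shows CD4 control replicate 3 as a band of high values across most of the 20S and 19S genes and not across Psmb8, Psmb10, Psme1 or Psme2.

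**Figure D1:**
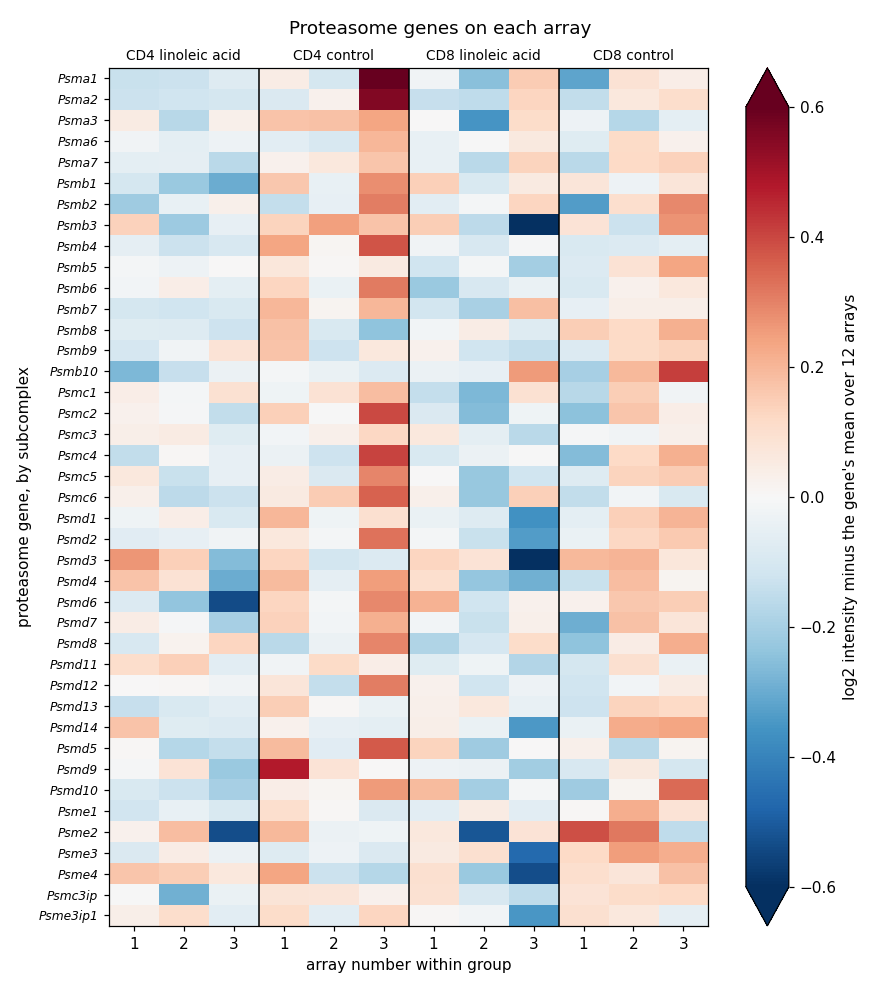
Each row is 1 of the 41 tested proteasome genes, ordered by subcomplex, and each column is 1 of the 12 arrays. Colour gives the log2 intensity minus the gene's mean over the 12 arrays, from blue (lower) to red (higher), with the scale ending at 0.6 to each side; CD4 control replicate 3 was the highest array for 24 genes.

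Of the 44 members 41 passed the filter on low values (a mean of at least log2 4.28) and were tested. The others were Psma8, the alpha subunit of testis proteasomes (mean 4.08 over 12 arrays), Psmb11, the catalytic subunit of the thymoproteasome (4.11), and Psma5, an alpha ring subunit of every core. Both probe sets of Psma5 lay at background, at 3.54 and 3.31, so this array gave no usable level for it. As a gauge of background, the 95th percentile of 1409 chemosensory receptor genes was 5.11. Among tested members only Psmc3ip (4.89), a meiotic recombination factor, had a mean below it, and Psmb3 (5.19) and Psme2 (5.55) lay close above. A near-identical gene, Psme2b, exists in RefSeq, so the signal of the Psme2 probe set may not come from Psme2 alone. Within subcomplexes the mean over 12 arrays ran between 7.23 for Psma1 and 9.16 for Psma3 in the alpha ring, between 5.19 for Psmb3 and 8.98 for Psmb1 in the constitutive beta ring, and between 8.24 for Psmb9 and 9.38 for Psmb8 among the immunoproteasome catalytic genes. It ran between 6.40 for Psmc5 and 8.55 for Psmc6 among the ATPases, between 6.48 for Psmd13 and 8.78 for Psmd8 among the non-ATPases, and between 5.64 for Psmd9 and 7.79 for Psmd5 among the cap's assembly chaperones. Psme1 had a mean of 10.55, Psme3 of 6.62 and Psme4 of 7.38, and Psme3ip1, a partner of the Psme3 protein, of 8.08. Such levels of different probe sets depend on their probes and give no order of mRNA amounts.

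In CD4 T cells no proteasome gene passed the threshold with linoleic acid, while most of them had slightly lower values than in control culture. With limma 0 of 41 members had an adjusted p under 0.05, where 0% of all 14323 tested genes did. At an unadjusted p under 0.05 there were 3 members, all lower (Psmd6, Psmb1 and Psmb4), beside 1.84% of all genes lower (2.6% in either direction). In all, 36 of the 41 log2 differences were below 0, with a median of -0.14, while 51.4% of all genes were below 0, with a median of -0.00. For 13 members every linoleic acid array lay below every control array, beside 4.52% of all genes (7.44% without overlap in either direction), and for 0 members every one lay above. With the replicate number as a block, 8 members had an unadjusted p under 0.05 (5.61% of all genes) and 0 an adjusted one (0.00698% of all genes, which is 1 gene). The smallest adjusted p of any member was 0.9998 without the block and 0.657 with it.

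**Figure D2:**
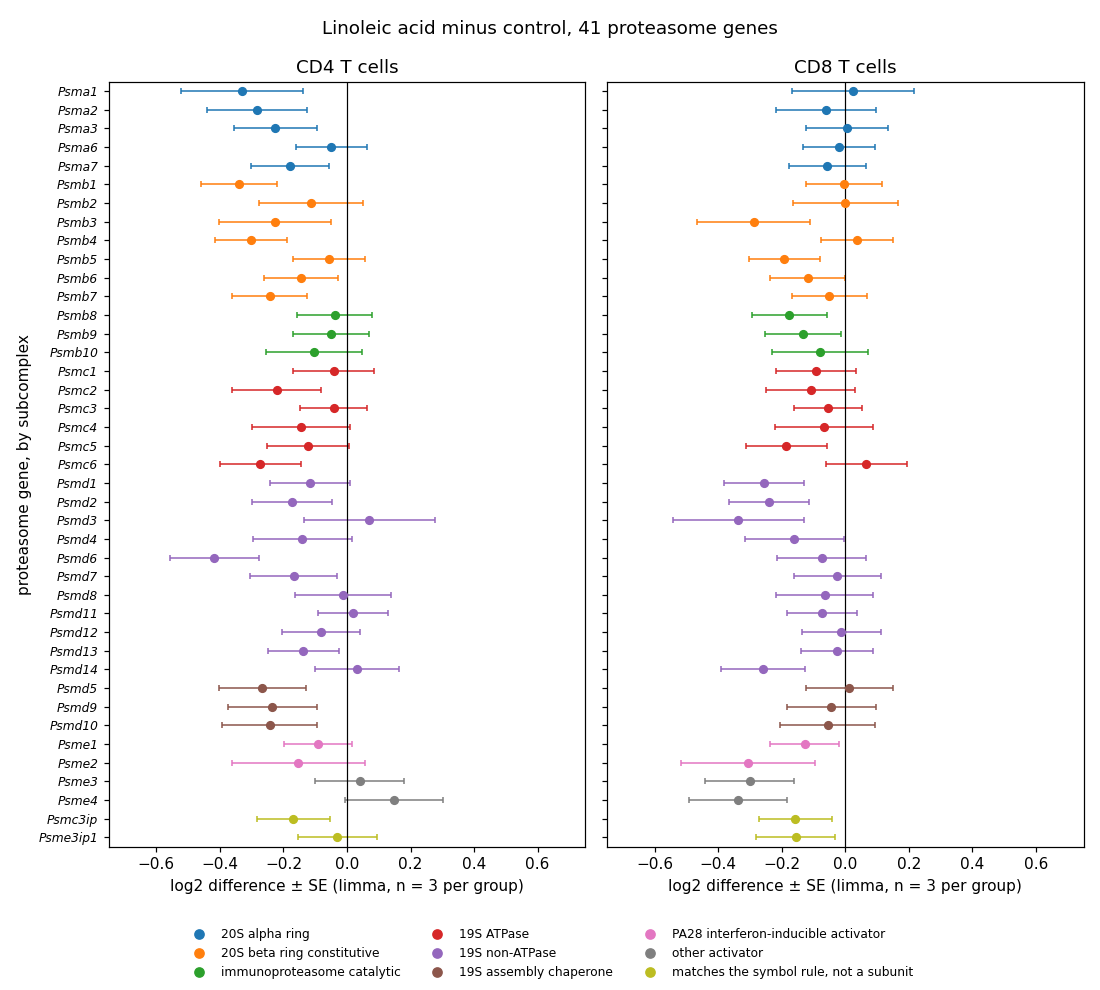
Points give the log2 difference of linoleic acid minus control for each of the 41 tested proteasome genes, in CD4 T cells on the left and CD8 T cells on the right, and bars the limma standard error (n = 3 per group). Colours mark subcomplexes; 36 genes lie left of 0 in CD4 T cells and 35 in CD8 T cells.

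Psmd6, a structural subunit of the 19S lid, read 7.21, 7.06 and 6.76 on the CD4 linoleic acid arrays, against 7.42, 7.28 and 7.58 on the CD4 control arrays. The groups did not overlap, and the third linoleic acid array was the lowest of all 12. Its log2 difference was -0.42 ± 0.14 (SE, n = 3 per group), a 1.34-fold lower intensity with an unadjusted limma p of 0.00998. Psmb1, a non-catalytic subunit of the beta ring, read 8.87, 8.76 and 8.68 with linoleic acid and 9.14, 8.94 and 9.26 in control culture (CD4 T cells). Its difference of -0.34 ± 0.12 had an unadjusted p of 0.0129. Psmb4, another non-catalytic beta subunit, read 6.63, 6.55 and 6.59 on the CD4 linoleic acid arrays, against 6.92, 6.69 and 7.06 on the CD4 control arrays. Its difference was -0.30 ± 0.11, unadjusted p = 0.0185. For both beta genes the control arrays were all higher and more spread out than the linoleic acid arrays. The SD was 0.163 in control culture against 0.095 with linoleic acid for Psmb1, and 0.185 against 0.037 for Psmb4. Psmc6, a 19S ATPase, read 8.59, 8.40 and 8.43 with linoleic acid and 8.61, 8.71 and 8.91 in control culture, a difference of -0.27 ± 0.13 (unadjusted p = 0.0512). Its first arrays were nearly equal and those numbered 3 far apart. Psmd5, a chaperone that helps to assemble the cap, read 7.80, 7.62 and 7.65 on the CD4 linoleic acid arrays and 7.98, 7.73 and 8.16 on the CD4 control arrays, and here the groups overlapped (-0.27 ± 0.14, unadjusted p = 0.0723).

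**Figure D3:**
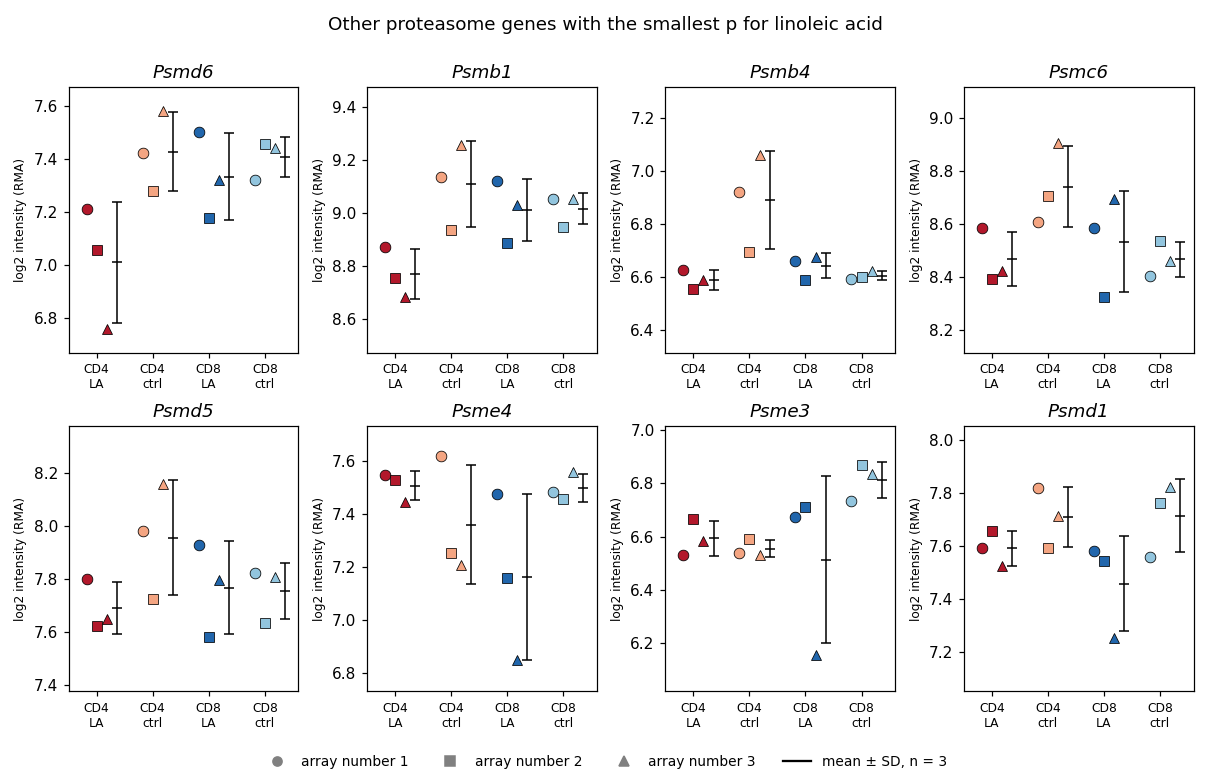
Log2 intensity on each of the 12 arrays for the 5 proteasome genes outside the catalytic and interferon-inducible ones with the smallest p for linoleic acid in CD4 T cells (Psmd6, Psmb1, Psmb4, Psmc6, Psmd5) and for 3 of the 5 in CD8 T cells (Psme4, Psme3, Psmd1). LA is linoleic acid and ctrl control culture; symbols give the array number and the bars the mean ± SD (n = 3); the Psmb4 values of CD4 linoleic acid lie between 6.55 and 6.63, below all 3 CD4 control values.

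By subcomplex, the medians of linoleic acid minus control in CD4 T cells lay between -0.24 and 0.09. All 5 tested alpha ring genes were below 0, with a median of -0.23 and a range of -0.33 (Psma1) to -0.05 (Psma6). All 7 constitutive beta genes were below 0, with a median of -0.23. All 6 ATPases were below 0 (median -0.13), as were 8 of 11 non-ATPase genes (median -0.12) and the 3 chaperones Psmd5, Psmd9 and Psmd10 (median -0.24). The 5 interferon-inducible genes had a median of -0.09, and each of them had overlapping groups. Psme3 and Psme4, the activators found in the nucleus, were the subcomplex above 0, at 0.04 ± 0.14 and 0.15 ± 0.16. The 13 members without overlap were Psmd6, Psmb1, Psmb4, Psmc6, Psmb7, Psma2, Psma3, Psmd10, Psmc3ip, Psma7, Psmd2, Psmd13 and Psmb5. Whether these subcomplexes differed from each other was not tested.

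Same-numbered arrays of CD4 T cells did not give the same size of difference. The median over the 41 members was -0.10 for the arrays numbered 1, -0.02 for those numbered 2 and -0.23 for those numbered 3. In the same pairs 32, 23 and 36 members were below 0. Of all genes 53.3%, 41.5% and 56.1% were below 0 in these pairs, with medians of -0.01, 0.05 and -0.04. For 18 members all 3 pairs were below 0, and for 0 members all 3 were above, while 14.1% of all genes were below 0 in all 3. Without CD4 control replicate 3, 29 of 41 members were below 0, with a median of -0.09, and the alpha ring median became -0.09. The constitutive beta ring then had a median of -0.21. Without that array 15 members had every linoleic acid array below every remaining control array, where 8.71% of all genes did. Only Psmd6 then had an unadjusted p under 0.05 (-0.34, limma, unadjusted p = 0.0467), and the share of all genes was not computed. Without CD4 linoleic acid replicate 3 the Psmd6 difference was -0.29 (limma, unadjusted p = 0.0625). B cell markers, by comparison, had a median of 0.14 in the same contrast, with 10 of 13 above 0, and their part in the proteasome values was not tested. In such bulk samples fewer cells of a type and less RNA per cell cannot be told apart.

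The interferon-inducible genes had log2 differences of -0.15 to -0.04 in CD4 T cells. Psmb8, which replaces Psmb5, read 9.31, 9.30 and 9.26 with linoleic acid, against 9.56, 9.29 and 9.14 in control culture. The linoleic acid arrays sat in the middle of the wider control range, and the log2 difference was -0.04 ± 0.12 (95% interval -0.29 to 0.22). Psmb9, which replaces Psmb6, read 8.14, 8.22 and 8.32 with linoleic acid, against 8.42, 8.12 and 8.31 in control culture, a difference of -0.05 ± 0.12. Psmb10, which replaces Psmb7, read 8.99, 9.12 and 9.22 with linoleic acid, against 9.25, 9.22 and 9.18 in control culture (-0.10 ± 0.15). Its first linoleic acid array was the lowest of the 6. Psme1, the alpha subunit of PA28, read 10.44, 10.51 and 10.46 with linoleic acid, against 10.66, 10.56 and 10.47 in control culture (-0.09 ± 0.11). Psme2, its beta subunit, read 5.58, 5.74 and 5.02 with linoleic acid, against 5.75, 5.52 and 5.53 in control culture (-0.15 ± 0.21). The low array numbered 3 set this mean, and without it the Psme2 difference turned to 0.06.

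The constitutive catalytic genes gave less overlap in CD4 T cells. Psmb7, with the trypsin-like site, read 8.32, 8.31 and 8.34 on the linoleic acid arrays, against 8.63, 8.45 and 8.63 on the control arrays, a difference of -0.24 ± 0.12 (95% interval -0.50 to 0.01, unadjusted p = 0.0604). Psmb5, with the chymotrypsin-like site, read 7.29, 7.27 and 7.30 with linoleic acid, against 7.37, 7.31 and 7.35 in control culture. These groups did not overlap either, but the difference was small, at -0.06 ± 0.11. Psmb6, with the caspase-like site, read 7.70, 7.75 and 7.65 with linoleic acid, against 7.84, 7.67 and 8.03 in control culture, with overlap (-0.15 ± 0.12).

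**Figure D4:**
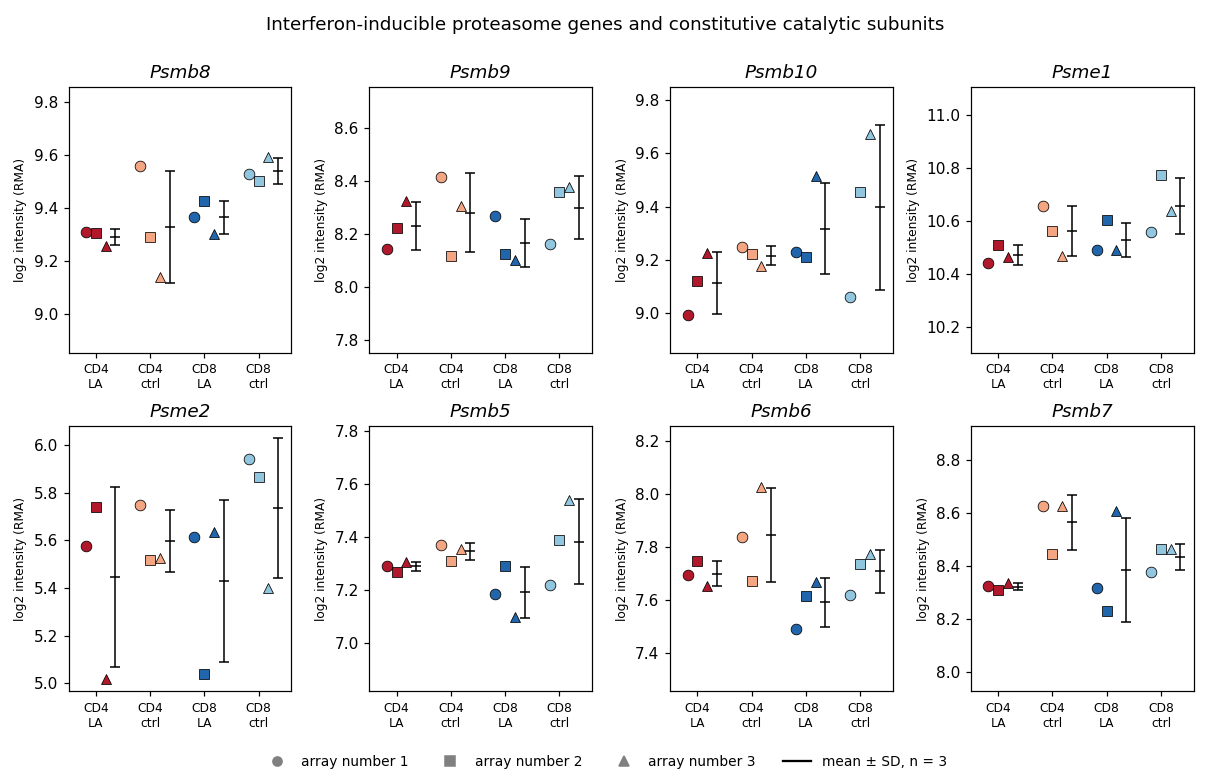
Log2 intensity on each of the 12 arrays for the 5 interferon-inducible proteasome genes and the 3 constitutive catalytic subunits. LA is linoleic acid and ctrl control culture; symbols give the array number and bars the mean ± SD (n = 3), and all Psmb8 values of CD8 linoleic acid (9.30 to 9.42) lie below those of CD8 control (9.50 to 9.59).

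In CD8 T cells no proteasome gene passed the threshold with linoleic acid either. The median over members lay near that of all genes, while a larger share of members was below 0. Without CD8 control replicate 1 the median over members was farther below 0, as given further down. With limma 0 of 41 members had an adjusted p under 0.05 (0% of all genes), the smallest adjusted p being 0.757. At an unadjusted p under 0.05 there was 1 member, Psme4, lower, beside 2.72% of all genes lower (5.08% in either direction). Log2 differences were below 0 for 35 of 41 members, with a median of -0.07, but also for 63.1% of all genes, with a median of -0.06. Only Psme3 and Psmb8 had every linoleic acid array below every control array, beside 5.7% of all genes (9.01% without overlap in either direction), and 0 members had the opposite. With the replicate number as a block 3 members had an unadjusted p under 0.05 (13.5% of all genes), namely Psme4, Psme3 and Psmd3, and 0 an adjusted one (0.00698% of all genes).

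Psme4, which encodes the PA200 activator, read 7.48, 7.16 and 6.85 on the CD8 linoleic acid arrays, against 7.48, 7.46 and 7.56 on the CD8 control arrays. The first pair was equal and the third far apart, giving -0.34 ± 0.16 (unadjusted p = 0.048). Psme3, the nuclear PA28 gamma subunit, read 6.67, 6.71 and 6.15 with linoleic acid, against 6.74, 6.87 and 6.84 in control culture (-0.30 ± 0.14, unadjusted p = 0.0505). Without CD8 linoleic acid replicate 3 these differences were -0.18 for Psme4 (limma, unadjusted p = 0.233) and -0.12 for Psme3 (unadjusted p = 0.285). Psmd1, a large scaffold subunit of the cap, read 7.58, 7.54 and 7.25 with linoleic acid, against 7.56, 7.76 and 7.82 in control culture (-0.26 ± 0.13). Psmd14, the deubiquitinase of the lid, read 6.76, 6.69 and 6.38 with linoleic acid, against 6.69, 6.95 and 6.97 in control culture (-0.26 ± 0.13). Psmd2, another large scaffold subunit, read 7.64, 7.52 and 7.32 with linoleic acid, against 7.62, 7.78 and 7.81 in control culture (-0.24 ± 0.13). In all 3 genes CD8 linoleic acid replicate 1 was slightly above CD8 control replicate 1, and CD8 linoleic acid replicate 3 was the lowest array of the 6. Leaving that array out gave -0.15 for Psmd1, -0.14 for Psmd14 and -0.15 for Psmd2.

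All 5 interferon-inducible genes were below 0 in CD8 T cells (median -0.13). Psmb8 read 9.36, 9.42 and 9.30 with linoleic acid, against 9.53, 9.50 and 9.59 in control culture. All linoleic acid arrays were lower, and the difference was -0.18 ± 0.12 (95% interval -0.43 to 0.08, unadjusted p = 0.162). Psmb9 read 8.27, 8.12 and 8.10 with linoleic acid, against 8.16, 8.36 and 8.38 in control culture (-0.13 ± 0.12). Psmb10 read 9.23, 9.21 and 9.51 with linoleic acid, against 9.06, 9.46 and 9.67 in control culture (-0.08 ± 0.15). Psme1 read 10.49, 10.60 and 10.49 with linoleic acid, against 10.56, 10.77 and 10.64 in control culture (-0.13 ± 0.11). Every same-numbered pair of Psmb8 and Psme1 pointed down, while the first pair of Psmb9 and Psmb10 pointed up. Psme2 read 5.62, 5.04 and 5.64 with linoleic acid, against 5.94, 5.87 and 5.40 in control culture (-0.31 ± 0.21). Of the constitutive catalytic genes, Psmb5 differed by -0.19 ± 0.11, Psmb6 by -0.12 ± 0.12 and Psmb7 by -0.05 ± 0.12, all with overlapping groups.

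The nuclear activators Psme3 and Psme4 had a median of -0.32 in CD8 T cells, or -0.15 without CD8 linoleic acid replicate 3. The median was -0.02 for the alpha ring, -0.05 for the constitutive beta ring, -0.08 for the ATPases and -0.04 for the cap chaperones. For the alpha ring it was -0.09 without CD8 linoleic acid replicate 3 and -0.10 without CD8 control replicate 1. For the constitutive beta ring it was -0.08 without CD8 linoleic acid replicate 3 and -0.16 without CD8 control replicate 1. All 11 non-ATPase genes were below 0, with a median of -0.07. The pair numbered 1 opposed the others, with 31 of 41 members above 0 and a median of 0.07. All 41 were below 0 in the pair numbered 2 (median -0.18) and 32 in the pair numbered 3 (median -0.15). Of all genes 48.8%, 65% and 59.7% were below 0 in the pairs numbered 1, 2 and 3, with medians of 0.005, -0.09 and -0.09. In 8 members all 3 pairs were below 0, beside 21.5% of all genes. Without CD8 control replicate 1 the median over members was -0.17, with 36 below 0. In 15 members every linoleic acid array was then below every remaining control array, where 12.7% of all genes were. Without CD8 linoleic acid replicate 3 the median was -0.09, with 37 below 0, and 0 members had an unadjusted p under 0.05. There were 3 such members without CD8 control replicate 1, Psmb5, Psmd1 and Psmd14, all lower with linoleic acid, and 0 were called. The share of all genes was not computed for that count. CD8 control replicate 1 was the lowest of its group for 30 members, so leaving it out moved their differences down. In the same contrast T cell markers were below 0 for 8 of 8 (median -0.14, median SE 0.14), beside 63.1% of all genes. B cell markers were above 0 for 10 of 13 (median 0.10, median SE 0.51). Myeloid markers were above 0 for 11 of 13 (median 0.09, median SE 0.26). At an unadjusted limma p under 0.05 there were 0 T cell, 0 B cell and 1 myeloid marker, beside 5.08% of all genes. T cell markers averaged 9.29 to 9.62 on the CD8 linoleic acid arrays and 9.54 to 9.65 on the CD8 control arrays. Myeloid markers averaged 5.22 to 6.15 on the CD8 linoleic acid arrays and 5.24 to 5.88 on the CD8 control arrays. The part of these markers in the proteasome values was not tested.

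Set side by side, 30 members were below 0 with linoleic acid in both cell types, 6 in CD4 T cells alone, 5 in CD8 T cells alone, and 0 were above 0 in both. The difference between the effects was tested as the CD4 effect minus the CD8 effect. With limma 0 of 41 members had an adjusted p under 0.05 (0% of all genes), the smallest adjusted p being 0.953. Psme4 was the 1 member with an unadjusted p under 0.05 (2.35% of all genes in either direction, 0.929% higher), at 0.15 in CD4 T cells and -0.34 in CD8 T cells, a difference of 0.49 ± 0.22 (limma, unadjusted p = 0.0446). Without CD8 linoleic acid replicate 3 it was 0.33 (limma, unadjusted p = 0.114), and 0 members had an unadjusted p under 0.05 without that array, CD4 control replicate 3 or CD8 control replicate 1. Next came Psmb4, at -0.30 in CD4 and 0.04 in CD8 T cells (difference -0.34 ± 0.16, limma, unadjusted p = 0.0529), Psmb1, at -0.34 in CD4 and -0.00 in CD8 T cells, Psmc6, at -0.27 in CD4 and 0.07 in CD8 T cells, and Psmd6, at -0.42 in CD4 and -0.07 in CD8 T cells. Without CD4 control replicate 3 the differences were -0.25 for Psmb4, -0.26 for Psmb1, -0.26 for Psmc6 and -0.27 for Psmd6. With the replicate number as a block 3 members had an unadjusted p under 0.05 (8.3% of all genes), Psme4, Psmb4 and Psmb1.

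The median of these differences over the 41 members was -0.02, with 22 below 0, while 42.9% of all genes were below 0 and their median was 0.04. All 5 tested alpha ring genes were below 0 (median -0.22, or -0.08 without CD4 control replicate 3), and so were the 3 cap chaperones (median -0.19). The 95% interval spanned 0 for every one of them, with half-widths of about 0.39 for the typical member. For the inducible genes the differences between the effects were 0.14 ± 0.17 for Psmb8, 0.08 ± 0.17 for Psmb9, -0.02 ± 0.21 for Psmb10, 0.04 ± 0.15 for Psme1 and 0.15 ± 0.30 for Psme2. For the constitutive catalytic genes they were 0.14 ± 0.16 for Psmb5, -0.03 ± 0.17 for Psmb6 and -0.19 ± 0.17 for Psmb7. None of these intervals excludes 0, and each leaves room for a difference of either sign.

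Between CD8 and CD4 T cells of control culture, the interferon-inducible genes had slightly higher values in CD8 cells and most of the 20S core slightly lower ones, with 0 members past the threshold. With limma 0 of 41 members had an adjusted p under 0.05, while 1.95% of all genes did. At an unadjusted p under 0.05 there were 2, both lower, beside 4.39% of all genes lower (9.37% in either direction). Psmb4 read 6.59, 6.60 and 6.62 in CD8 control cells, against 6.92, 6.69 and 7.06 in CD4 control cells (-0.29 ± 0.11, limma, unadjusted p = 0.0241, adjusted p = 0.368). Psma3, an alpha ring subunit, read 9.13, 8.98 and 9.10 in CD8 control cells, against 9.33, 9.33 and 9.39 in CD4 control cells (-0.28 ± 0.13, limma, unadjusted p = 0.0473). Psmc6 differed by -0.27 ± 0.13 and Psmd9, a cap chaperone, by -0.23 ± 0.14. Psme3 read 6.74, 6.87 and 6.84 in CD8 control cells, against 6.54, 6.59 and 6.53 in CD4 control cells, higher on every array (0.26 ± 0.14, limma, unadjusted p = 0.0848). In all, 3 members were lower without overlap, beside 7.53% of all genes, and 2 were higher without overlap, beside 8.52% of all genes (16.1% in either direction). Log2 differences were below 0 for 27 of 41 members and 49.6% of all genes, with a median of -0.05 over the members. Without CD4 control replicate 3 the median was 0.01, with 18 below 0, Psmb4 differed by -0.20, and 0 members had an unadjusted p under 0.05. Without CD8 control replicate 1 the median was 0.02, with 18 below 0. Psmb10 (0.35, limma, unadjusted p = 0.0274) was then the 1 member with an unadjusted p under 0.05, and the share of all genes was not computed. The array left out held the lowest Psmb10 value of its group.

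**Figure D5:**
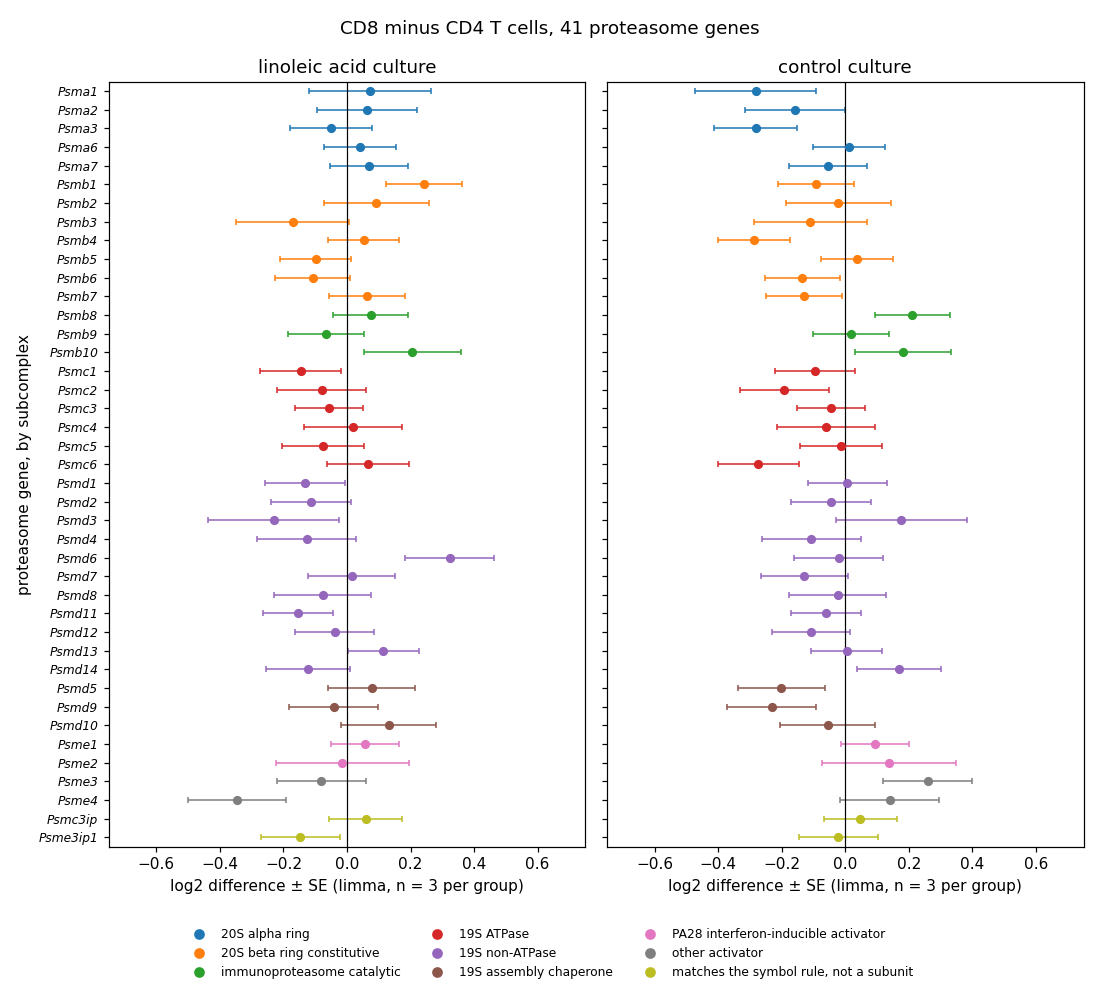
Points give the log2 difference of CD8 minus CD4 T cells for each of the 41 tested proteasome genes, in linoleic acid culture on the left and control culture on the right, and bars the limma standard error (n = 3 per group). All 5 interferon-inducible genes lie right of 0 in control culture, between 0.02 and 0.21.

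All 5 inducible genes were above 0 in CD8 against CD4 control cells, with a median of 0.14. Psmb8 differed by 0.21 ± 0.12 (unadjusted p = 0.0978), Psmb10 by 0.18 ± 0.15, Psme2 by 0.14 ± 0.21, Psme1 by 0.09 ± 0.11 and Psmb9 by 0.02 ± 0.12, each with overlapping groups. Between the arrays numbered 1 every one of these except Psme2 was below 0. All of them were above 0 between the arrays numbered 2, and all except Psme2 between those numbered 3. Numbers were not taken to pair the arrays of this contrast. The constitutive catalytic genes differed by 0.04 ± 0.11 for Psmb5, -0.14 ± 0.12 for Psmb6 and -0.13 ± 0.12 for Psmb7. The alpha ring had a median of -0.16, the constitutive beta ring of -0.11 and the ATPases of -0.08. Without CD4 control replicate 3 the medians were -0.01 for the alpha ring, -0.05 for the constitutive beta ring and 0.10 for the inducible genes. Without CD8 control replicate 1 they were -0.08 for the alpha ring, -0.10 for the constitutive beta ring, -0.03 for the ATPases and 0.14 for the inducible genes. B cell markers were below 0 for 13 of 13 in this contrast, with a median of -0.39, and their part in these values was not tested.

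In linoleic acid culture the inducible genes lay between -0.07 and 0.21 in CD8 against CD4 T cells, and members of the cap and the activators lay farthest from 0. With limma 0 of 41 members had an adjusted p under 0.05, while 2.03% of all genes did. Psmd6 read 7.50, 7.18 and 7.32 in CD8 linoleic acid cells, against 7.21, 7.06 and 6.76 in CD4 linoleic acid cells (0.32 ± 0.14, unadjusted p = 0.037). Psme4 read 7.48, 7.16 and 6.85 in CD8 linoleic acid cells, against 7.55, 7.53 and 7.45 in CD4 linoleic acid cells (-0.35 ± 0.16, unadjusted p = 0.0432). They were the 2 members at an unadjusted p under 0.05, a level that 11.8% of all genes reached. Without CD8 linoleic acid replicate 3 the Psme4 difference was -0.19 (limma, unadjusted p = 0.213) and that of Psmd6 0.33 (unadjusted p = 0.0558). Without CD4 linoleic acid replicate 3, the lowest array for Psmd6, its difference was 0.20 (limma, unadjusted p = 0.191). Psmb1 (0.24 ± 0.12) and Psmd13, a lid subunit (0.11 ± 0.11), were higher in CD8 cells on every array, beside 15.3% of all genes without overlap in either direction. Psmd11, a lid subunit, differed by -0.15 ± 0.11 and Psme3ip1 by -0.15 ± 0.12. The inducible genes had a median of 0.06, with Psmb10 at 0.21 ± 0.15, Psmb8 at 0.07 ± 0.12, Psme1 at 0.06 ± 0.11, Psme2 at -0.01 ± 0.21 and Psmb9 at -0.07 ± 0.12. Psmb5 differed by -0.10 ± 0.11, Psmb6 by -0.11 ± 0.12 and Psmb7 by 0.06 ± 0.12. The median of all 41 members was -0.04, with 22 below 0, beside 54.1% of all genes. With the replicate number as a block 0 members had an adjusted p under 0.05, where 5.57% of all genes did.

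The contrasts of linoleic acid and of cell type share arrays, so that the low CD4 linoleic acid values of Psmd6 and the high CD4 control values of Psmb4 each enter more than 1 comparison and do not count as separate observations.

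Around the proteasome, 19 assembly factors, shuttle receptors and regulators were tested. In CD4 T cells 14 of them were below 0 with linoleic acid (median -0.03), beside 51.4% of all genes, and 0 passed the threshold. Sem1, a small subunit of the lid whose symbol does not follow the family pattern, averaged 7.82 in CD4 linoleic acid cells and 8.31 in CD4 control cells, without overlap (-0.49 ± 0.16, unadjusted p = 0.00938). Its same-numbered pairs differed by -0.19, -0.25 and -1.03, the last against CD4 control replicate 3, and without that array its difference was -0.28 (limma, unadjusted p = 0.0571). The Psmg1 difference was then -0.09. Psmg2 (-0.26 ± 0.14) and Psmg1 (-0.18 ± 0.13), partners in the assembly of the alpha ring, were below 0 and Akirin2, which brings proteasomes into the nucleus, above it (0.16 ± 0.14). In CD8 T cells 18 of 19 were below 0 (median -0.16), beside 63.1% of all genes (median -0.06), and 0 passed. Usp14, a deubiquitinase of the cap, differed by -0.32 ± 0.13 and the inhibitor Psmf1 by -0.29 ± 0.15. Ecpas, a proteasome adaptor, differed by -0.21 ± 0.13 and the shuttle factor Ubqln2 by -0.45 ± 0.28. When CD8 linoleic acid replicate 3 was left out, the list had 14 of 19 below 0 and a median of -0.06, and the differences were -0.23 for Usp14, -0.16 for Psmf1, -0.16 for Ecpas and -0.17 for Ubqln2.

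The MHC class I loading genes, which take up the peptides that proteasomes make, had 8 of 12 below 0 in CD4 T cells (median -0.04) and 12 of 12 in CD8 T cells (median -0.16), with 0 past the threshold in either. Among all genes 51.4% were below 0 in CD4 T cells and 63.1% in CD8 T cells. In CD4 T cells Erap1, a peptide trimming enzyme, differed by -0.15 ± 0.12. In CD8 T cells the class I gene H2-T23 differed by -0.28 ± 0.11, the peptide editor Tapbp by -0.29 ± 0.14, the transporter subunit Tap2 by -0.36 ± 0.18 and Tapbpl, a relative of Tapbp, by -0.24 ± 0.13. All 12 were also below 0 without CD8 linoleic acid replicate 3, with a median of -0.10, and the differences were -0.19 for H2-T23, -0.13 for Tapbp, -0.13 for Tap2 and -0.19 for Tapbpl. Tapbpl differed by 0.47 ± 0.13 between CD8 and CD4 control cells, with every CD8 array higher and an adjusted p of 0.109.

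Other interferon-stimulated genes, from which proteasome genes were left out, had 25 of 28 tested members below 0 with linoleic acid in CD4 T cells (median -0.17, beside 51.4% of all genes). In CD8 T cells 26 of 28 were below 0 (median -0.21, beside 63.1% of all genes), and again 0 passed. At an unadjusted p under 0.05 there was 1 in CD4 T cells (2.6% of all genes), the antiviral Ifit1 (-0.49 ± 0.20), and there were 7 in CD8 T cells (5.08% of all genes), led by the RNA sensor Ifih1 (-0.40 ± 0.12, limma, unadjusted p = 0.00483) and the antiviral Oas3 (-0.42 ± 0.15). Interferon signalling genes had 3 of 14 below 0 in CD4 T cells (median 0.06) and 12 of 14 in CD8 T cells (median -0.11), with Stat2 at -0.42 ± 0.16 in CD8 T cells. In CD4 T cells Ifng, the gene of interferon-gamma, differed by -0.40 ± 0.25 with overlapping groups (limma, unadjusted p = 0.134). Its mean over 12 arrays, 5.19, lay close to the background gauge of 5.11. Without CD8 linoleic acid replicate 3, interferon-stimulated genes had 27 of 28 below 0 in CD8 T cells (median -0.26), with Ifih1 at -0.35 and Oas3 at -0.30. Then 5 had an unadjusted p under 0.05, a count for which the share of all genes was not computed. Interferon signalling genes then had 9 of 14 below 0 (median -0.05), with Stat2 at -0.25. Without CD4 control replicate 3, interferon-stimulated genes had 21 of 28 below 0 in CD4 T cells (median -0.11) and 0 had a limma unadjusted p under 0.05 or were called, with Ifit1 at -0.44.

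Between the cell types most other interferon-stimulated genes were below 0 in CD8 against CD4 cells, while the inducible proteasome genes were above 0 for 3 of 5 in linoleic acid culture and 5 of 5 in control culture. In control culture 22 of 28 interferon-stimulated genes were below 0 in CD8 against CD4 T cells (median -0.27), beside 49.6% of all genes. Of the 28, 1 passed the threshold, where 1.95% of all genes did: the antiviral Ifit2, which fell by 0.79 on the log2 scale (limma, adjusted p = 0.0291). The interferon receptor chain Ifnar2 rose by 0.52 ± 0.11 (adjusted p = 0.0275), the 1 of 14 signalling genes that passed. With arrays centred on their medians the adjusted p was 0.0560 for Ifit2 and 0.0556 for Ifnar2. When single arrays were left out, it rose above 0.05 for Ifit2 without CD4 control replicate 1 or 3 or any of the 3 CD8 control arrays (0.0627 to 0.157), and for Ifnar2 without CD4 control replicate 2 or 3 or any of the 3 CD8 control arrays (0.0646 to 0.143). In linoleic acid culture 22 of 28 were below 0 as well (median -0.26), beside 54.1% of all genes. Of the 28, 5 passed (2.03% of all genes), all lower: Ifih1 (-0.90 ± 0.12, limma, adjusted p = 0.00058), the transcription factor Stat2 (-0.78 ± 0.16), Ifit2 (-0.81 ± 0.17), the antiviral Oasl2 (-1.02 ± 0.22) and the GTPase Iigp1 (-0.86 ± 0.20). Stat2 stands on both lists and was the 1 signalling gene that passed. A fit blocked on array number called 9 interferon-stimulated genes, 3 signalling genes and 1 MHC class I loading gene (Pdia3, a chaperone, at -0.43), where 5.57% of all genes were called. When single arrays were left out, the 5 calls became 1 (without CD4 linoleic acid replicate 2), 2 (without replicate 3 of either cell type) or 3 (without any of the other arrays compared), and the Stat2 call was lost without CD4 linoleic acid replicate 2 or 3 or CD8 linoleic acid replicate 3 (adjusted p 0.0723 to 0.143). Fitted on the arrays compared alone, Stat2, Ifit2 and Oasl2 had adjusted p-values of 0.152, 0.0741 and 0.136, and Ifnar2 in control culture one of 0.0682. B cell markers were below 0 for 13 of 13 in linoleic acid culture as well (median -0.47), and their part was not tested. The inducible proteasome genes and these lists were not tested against each other.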

How the data were processed

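Deposited values were log2 intensities for 41345 probe sets on 12 arrays, made by the authors with RMA, per the submitters' processing notes. RMA corrects background, normalises quantiles across arrays and summarises probes. Which software and genome build they used is not given in the sources used here. Values were used as deposited. Gene names came from the platform annotation (23521 probe sets with 1 symbol, 1814 with several, 16010 with none), and of several probe sets of a gene the brightest on average was kept. Genes with a mean below the 40th percentile of probe set means (4.28) were left out.

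Contrasts were fitted in limma 3.58.1 under R 4.3.3 (lmFit and eBayes, two-sided) on all 12 arrays without a block, with 8 residual and 5.67 prior degrees of freedom. Benjamini-Hochberg adjustment ran over 14323 genes at 0.05. SE is limma's. The number of arrays limits the precision. The fit was tested on simulated data.

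The members and lists were chosen with earlier results of these data known. Named were the inducible and constitutive catalytic genes, the 5 other members and up to 4 genes of each list with the smallest p in a contrast, untested members, the non-subunits, and the members of highest and lowest mean in each subcomplex. Further members were named after their values were seen.

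The labels number arrays 1 to 3 without saying what a number marks. Between arrays of the same number, deviations from the group mean correlated at 0.61, 0.19 and 0.32 (CD4 linoleic acid and control), 0.43, 0.19 and 0.42 (CD8), and 0.58, 0.26 and 0.52 (linoleic acid culture, CD8 with CD4), each above 0.1, so numbers were taken to pair these arrays. Arrays of unlike number were not compared in this way. The SE, p-values and intervals of single genes do not use this pairing unless a block is named. For CD8 and CD4 in control culture they were 0.54, -0.01 and 0.42, and numbers were not taken to pair them.

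Alternatives were the replicate block, no filter, a filter at the median, the mean of a gene's probe sets, eBayes with a trend or robust, array weights, arrays centred on their medians, only the arrays compared, and leaving out arrays or array numbers. The block without the arrays numbered 1, and the alternatives for the pathway lists, were chosen after seeing the data. With arrays left out, the shares of all genes below 0 and at an unadjusted p under 0.05 were not computed.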

Additional observations from a re-analysis of the deposited data

How the results depend on the processing

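Proteasome genes past the threshold stayed at 0 in all 5 contrasts under every alternative run, except that array weights gave 1 between CD8 and CD4 T cells in linoleic acid culture (Psme4, -0.35, adjusted p = 0.0218); the weights did not reach their convergence tolerance. The median over members for linoleic acid in CD8 T cells (-0.07) was -0.16 with array weights, -0.18 with the replicate block and without replicate 1, and -0.18 to -0.023 when arrays or numbers were left out. The median of the difference of effects (-0.02) was -0.14 to 0.050 when they were left out, and that in CD4 T cells -0.19 to -0.08. The direction turned with array weights for Psme2 in CD4 T cells (0.010), Psmb10 in the difference (0.12) and Psmb7 between cell types in linoleic acid culture (-0.058), with median centring for Psmb10 and Psmb6 in the difference (0.020 and 0.017), and with the block without replicate 1 for Psmb8 (0.066) and Psmb9 (0.061) in CD4 T cells and Psmb10 in the difference (0.18). When arrays or numbers were left out, the values of linoleic acid in CD4 T cells ran between -0.13 and 0.076 for Psmb8, -0.13 and 0.061 for Psmb9, -0.34 and 0.060 for Psme2, -0.16 and 0.051 for Canx, -0.15 and 0.024 for Tapbp, -0.00655 and 0.20 for Ifnar2 and -6.67e-06 and 0.31 for Tyk2, and in CD8 T cells between -0.25 and 0.060 for Psmb10 and -0.16 and 0.042 for Psmb7. In the difference they ran between -0.043 and 0.32 for Psmb9, -0.16 and 0.18 for Psmb10, -0.020 and 0.13 for Psme1, -0.30 and 0.60 for Psme2 and -0.14 and 0.093 for Psmb6, and between cell types in control culture between -0.092 and 0.15 for Psmb9 and -0.042 and 0.13 for Psmb5. In linoleic acid culture they ran between -0.16 and 0.013 for Psmb9, -0.33 and 0.33 for Psme2 and -0.048 and 0.14 for Psmb7. Among all genes, calls between cell types in control culture were 280, and 630 with the block; in linoleic acid culture they were 291, 798 with the block and 2299 with array weights; for linoleic acid in CD8 T cells array weights gave 213 in place of 0. In control culture, where numbers were not taken to pair the arrays, the block left 0 members past the threshold. At an unadjusted p under 0.05 it gave 3 of 41 members in place of 2, and 2079 of all 14323 genes in place of 1342. The causes were not tested. Groups of 3 arrays limit every comparison: the typical 95% interval of a member reached 0.28 to each side of its log2 difference.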
